A study of Mus musculus with 20 samples.

Results

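Messenger RNA of the 3 TGF-beta ligands (Tgfb1, Tgfb2 and Tgfb3), 3 receptors (Tgfbr1, Tgfbr2 and Tgfbr3) and 4 latent binding proteins (Ltbp1, Ltbp2, Ltbp3 and Ltbp4) was followed in the heart apex of uninjured mice that had received Zeb2os by gene transfer. The genes were taken by symbol from both deposited tables, and all 10 were found among the 26214 genes listed. Wild-type FVB/NRj mice were studied at postnatal day 28 after retro-orbital injection of AAV9, an adeno-associated virus that reaches heart muscle well, among other tissues. There were 4 groups of 5 mice, 20 in all. The first group received Zeb2os under the hTNNT2 promoter (3 males and 2 females) and was set against an hTNNT2 control group (0 males and 5 females). The second received Zeb2os under the CMV promoter (1 male and 4 females) and was set against a CMV control group (2 males and 3 females). The hTNNT2 promoter, from the human cardiac troponin T gene, drives expression in cardiomyocytes, whereas CMV is active in most cell types. The labels do not say what the control vectors carried. Zeb2os is a noncoding transcript from the strand opposite to Zeb2, a gene for a zinc-finger repressor that binds SMAD proteins.

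TGF-beta is secreted as a latent complex, in which the ligand stays bound to its own propeptide and, through it, to a latent TGF-beta binding protein that ties the complex to fibrillin and fibronectin in the matrix. Integrins or proteases release the ligand, which then binds TGFBR2, and TGFBR2 phosphorylates TGFBR1 so that SMAD2 and SMAD3 are activated. In the heart the pathway is known for turning fibroblasts into matrix-producing cells and for its part in scar formation.

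The values are those of the authors' own DESeq2 comparisons of 5 with 5 mice. Each gene has a mean normalised count over the 10 libraries of a comparison, a log2 fold change of Zeb2os over control with its standard error (SE), a p-value and an adjusted p-value. No value per mouse entered the work, so whether groups overlapped could not be seen. The mean counts summed to 51284505 in the hTNNT2 table and 44295571 in the CMV table, and the depth of single libraries is unknown here. As a check of the vector, Zeb2os rose in the authors' deposited tables by a log2 fold change of 4.53 (SE 0.083) with hTNNT2 and 3.66 (SE 0.071) with CMV. Zeb2 stood at 0.033 (SE 0.080, adjusted p = 1.00) and -0.0095 (SE 0.059, adjusted p = 1) according to the authors' deposited tables. Markers of cardiomyocytes, which define the tissue, had mean counts of 127266 to 5199973 (hTNNT2) and 110486 to 4512218 (CMV) over 8 genes.

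All 10 genes were expressed, over a range of more than 100-fold per kilobase of exon. Ltbp4, a binding protein also needed for elastic fibre assembly, was the highest, at a mean of 3761 normalised counts per kilobase in the hTNNT2 table and 3229 in the CMV table. Ltbp2, which unlike the other binding proteins does not bind latent TGF-beta and is a fibrillin-associated protein, was the lowest, at 25.1 and 18.5. Of the 4 binding proteins' summed level per kilobase, Ltbp4 made up 82.3% in both tables and Ltbp2 0.55% (hTNNT2) and 0.47% (CMV). Both tables were normalised separately, so levels are compared between genes and not between tables.

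Tgfbr3, or betaglycan, a co-receptor that presents ligand and is needed most for TGF-beta 2, came next after Ltbp4 with 958 counts per kilobase (hTNNT2) and 827 (CMV). It made up 51.2% and 51.3% of the receptors' summed level per kilobase. The type II receptor Tgfbr2 followed with 564 and 482, and the type I receptor Tgfbr1 had 351 and 303. Among the ligands Tgfb3 had 519 (hTNNT2) and 440 (CMV) counts per kilobase, Tgfb1 333 and 291, and Tgfb2 238 and 201. Ltbp1 and Ltbp3, which bind the latent forms of all TGF-beta ligands, lay at 553 and 229 in the hTNNT2 table and at 482 and 195 in the CMV table.

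**Figure D1:**
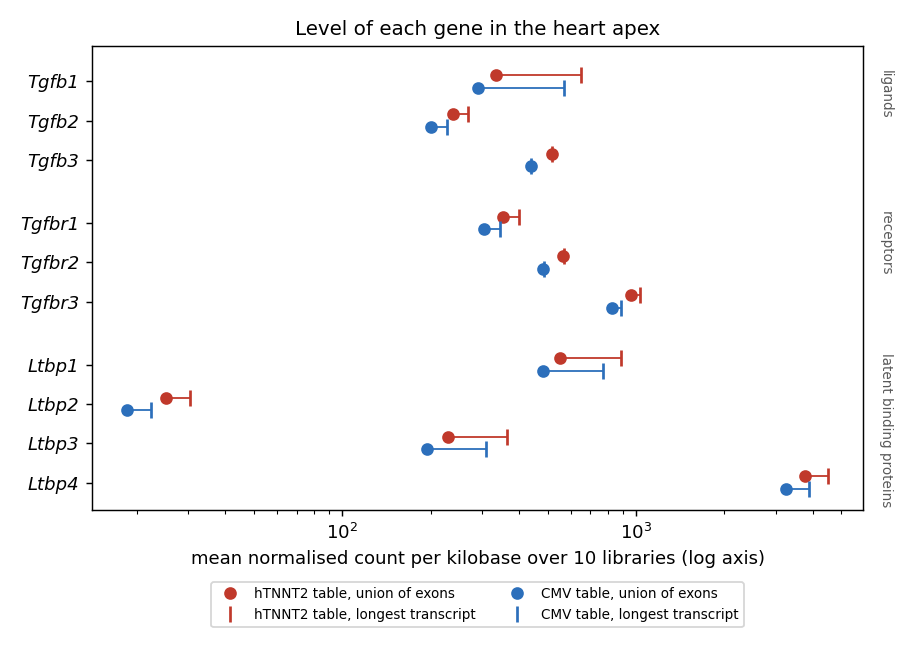
Mean normalised count per kilobase (log axis) of each of the 10 genes, averaged by the authors over the 10 libraries of the hTNNT2 table (red) and of the CMV table (blue). Dots use the union of exons as gene length and ticks the longest transcript; Ltbp4 is highest and Ltbp2 lowest under both, whereas Tgfb1 moves above Tgfb3 with the longest transcript.

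In the hTNNT2 table the descending order was Ltbp4, Tgfbr3, Tgfbr2, Ltbp1, Tgfb3, Tgfbr1, Tgfb1, Tgfb2, Ltbp3 and Ltbp2, and it was the same in the CMV table. The error of a mean was taken from the SE after removal of shrinkage, which has 2 solutions (described further on). With the solution of the smaller fold it was 0.037 to 0.046 on the log2 scale with hTNNT2. The SE of a ratio treated both genes as independent, although they were measured in the same libraries, and left out the choice of gene length. These comparisons of neighbours are therefore approximate. By this error Tgfbr2 and Ltbp1 could not be told apart in the hTNNT2 table (log2 ratio 0.028, SE 0.053). Nor could Tgfbr1 and Tgfb1 (0.079, SE 0.061), or Tgfb2 and Ltbp3 (0.052, SE 0.054). Ltbp1 and Tgfb3 were closer than this error allows to tell apart in the hTNNT2 table (0.091, SE 0.056) but not in the CMV table (0.13, SE 0.057). With the solution of the larger fold the SE of that CMV ratio was 0.22, so this pair could not be told apart there either, while the result for every other pair of neighbours in both tables was the same. With the longest transcript as length, in place of the 5042 bases of its joined exons, Tgfb1 moved from the seventh place to the fourth. It then held 45.3% (hTNNT2) and 46.0% (CMV) of the ligands' level, where Tgfb3 held 36.1% and 35.6%.

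With hTNNT2 Zeb2os, none of the 10 genes passed the authors' DESeq2 test at an adjusted p under 0.05. The count was 0 of 10, beside 0.0326% of all 21461 genes tested. At an unadjusted p under 0.05, 2 genes were higher (Ltbp2 and Tgfb2) and 0 lower, where 2.27% of all genes were higher and 1.64% lower. The median log2 fold change of the 10 genes was 0.037 in the authors' deposited table, with 6 genes above 0. The median of all genes tested was -0.00080, and 47.0% of them lay above 0. With CMV Zeb2os, 0 of 10 passed the authors' DESeq2 test, beside 0.00469% of 21318 genes. At an unadjusted p under 0.05 there were 0 higher and 0 lower, where 0.661% of all genes were higher and 1.01% lower. The median log2 fold change of the 10 genes was 0.011 in the authors' deposited table, with 5 genes above 0, against a median of -0.00016 and a share of 48.3% above 0 over all genes tested.

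**Figure D2:**
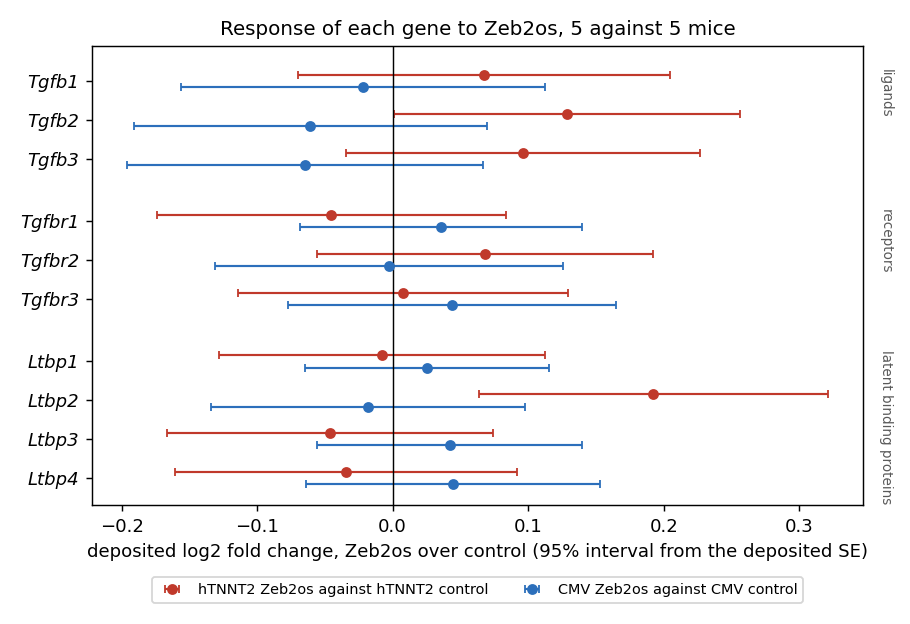
Deposited log2 fold change of Zeb2os over control for each gene, with the 95% interval from the deposited SE, in the hTNNT2 comparison (red) and the CMV comparison (blue), each of 5 against 5 mice. The intervals of Ltbp2 (0.063 to 0.32) and Tgfb2 (0.0011 to 0.26) with hTNNT2 leave out 0, and the other 18 hold it.

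The 3 ligands were measured at similar depth, with mean counts of 1376 (Tgfb2), 1677 (Tgfb1) and 1756 (Tgfb3) according to the authors' deposited hTNNT2 table. Tgfb2, the isoform whose loss causes heart malformations in mice, stood at a log2 fold change of 0.13 (SE 0.065) with hTNNT2 according to the authors' deposited table. Its unadjusted p was 0.048 and its adjusted p 1.00 by the authors' DESeq2 test, and 3.77% of all genes tested had a smaller p-value. Tgfb3 stood at 0.096 (SE 0.067, p = 0.15) and Tgfb1, the isoform most studied in fibrosis, at 0.067 (SE 0.070, p = 0.335) by DESeq2 in the authors' deposited table. All 3 ligands were therefore on the higher side with hTNNT2 Zeb2os, and none passed.

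With CMV all 3 ligands were on the lower side, and again none passed. Tgfb3 stood at -0.065 (SE 0.067, p = 0.336) and Tgfb2 at -0.061 (SE 0.067, p = 0.361) by DESeq2 in the authors' deposited table. Tgfb1 was nearest to 0 of the ligands in the authors' deposited CMV table, at -0.022 (SE 0.069, p = 0.751, DESeq2). The adjusted p was 1 for each ligand with CMV.

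Of the receptors none had an unadjusted p under 0.05. Tgfbr2, the receptor that binds ligand first, stood at 0.068 (SE 0.063, p = 0.281, DESeq2) with hTNNT2 and at -0.0025 (SE 0.065, p = 0.969) with CMV according to the authors' deposited tables. Tgfbr1, the kinase that activates SMADs, stood at -0.045 (SE 0.066, p = 0.49, DESeq2) with hTNNT2 and at 0.036 (SE 0.053, p = 0.502) with CMV according to the authors' deposited tables. Tgfbr3 was on the higher side in both, at 0.0075 (SE 0.062, p = 0.904, DESeq2) with hTNNT2 and 0.044 (SE 0.062, p = 0.479) with CMV according to the authors' deposited tables. None of the receptor intervals left out 0.

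Ltbp2 had the largest response of the 10 genes with hTNNT2, but not with CMV. Its log2 fold change with hTNNT2 was 0.19 (SE 0.066) according to the authors' deposited table, with an unadjusted p of 0.00345 and an adjusted p of 0.539 by DESeq2. Of all genes tested, 0.531% had a smaller p-value. With CMV it stood at -0.018 (SE 0.059, p = 0.759, DESeq2) according to the authors' deposited table. Its mean count was low, at 206 in the authors' deposited hTNNT2 table and 151 in the CMV one, which places it near the middle of all genes tested. An antisense gene, D030025P21Rik, shares 764 of the exonic bases of Ltbp2 (9.34%), and the labels do not say whether counting used the strand. That gene had a mean count of only 1.72 (hTNNT2) and 0.13 (CMV) according to the authors' deposited tables.

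The other 3 binding proteins showed no response beyond their error. With hTNNT2 Ltbp3 stood at -0.046 (SE 0.061), Ltbp4 at -0.035 (SE 0.064) and Ltbp1 at -0.0076 (SE 0.061) according to the authors' deposited table. With CMV they stood at 0.042 (SE 0.050), 0.044 (SE 0.055) and 0.026 (SE 0.046) in the same order in the authors' deposited table. The unadjusted p-values of the authors' DESeq2 test ran from 0.398 to 0.901. Ltbp2 was thus on the other side of 0 from Ltbp1, Ltbp3 and Ltbp4 in both comparisons.

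Ltbp2 lies on the minus strand of chromosome 12 from 84783212 to 84876532 in GENCODE M21 on GRCm38, and Tgfb3 on the same strand and chromosome from 86056745 to 86079041. Tgfb2 lies on the minus strand of chromosome 1 from 186622792 to 186705989. Tgfb1 (25687002 to 25705077, plus strand) and Ltbp4 (27305136 to 27337692, minus strand) share chromosome 7. The promoters of Ltbp2 and Tgfb2 are shown because these were the genes with an unadjusted p under 0.05, a choice made after values had been seen. Each sequence covers 250 bases before and 50 after the RefSeq start, on the gene's strand and in build GRCm38.p6. Capitals mark the SMAD binding motif CAGAC, or its reverse complement GTCTG.
Ltbp2, chr12:84876442-84876741, minus strand: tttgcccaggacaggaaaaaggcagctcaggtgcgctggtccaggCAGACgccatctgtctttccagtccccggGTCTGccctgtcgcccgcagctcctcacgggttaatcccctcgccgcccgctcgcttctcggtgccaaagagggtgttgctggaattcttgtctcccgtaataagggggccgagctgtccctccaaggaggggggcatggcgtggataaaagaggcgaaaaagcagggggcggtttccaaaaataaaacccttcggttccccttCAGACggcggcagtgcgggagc
Tgfb2, chr1:186705940-186706239, minus strand: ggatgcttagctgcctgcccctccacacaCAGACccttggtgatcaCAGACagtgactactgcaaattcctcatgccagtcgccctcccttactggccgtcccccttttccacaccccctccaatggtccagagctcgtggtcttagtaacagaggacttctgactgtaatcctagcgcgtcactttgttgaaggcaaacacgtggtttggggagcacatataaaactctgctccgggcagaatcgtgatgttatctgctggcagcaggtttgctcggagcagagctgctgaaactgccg
The motif occurs 3 times in the Ltbp2 window and 2 times in the Tgfb2 window. On either strand it was found in 49.6% of the 32851 RefSeq promoters of this length and in 7 of 12 windows of the 8 genes that had one. Tgfb3 and Tgfbr3 had no window. Those of Ltbp4 that start at 27333599 and 27333614 overlap, so the 12 windows are not independent. The letters CACCT, the core to which ZEB proteins bind, or AGGTG on the other strand, were found in 51.9% of all promoters and 9 of the 12 windows. They occur 1 time in the Ltbp2 window and 0 times in the Tgfb2 window. A match describes the sequence and is not a measured site.

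The response to hTNNT2 Zeb2os was next set against the response to CMV Zeb2os. The arms differed in Zeb2os level as well as in promoter. Mean counts of Zeb2os over treated and control libraries were 43281 (hTNNT2) and 4138 (CMV), each normalised separately. Sex differed too, with 3 males in the hTNNT2 Zeb2os group and 0 in its control, against 1 and 2 with CMV. Promoter, level and sex therefore cannot be told apart in this difference. The comparisons share no mice. The difference of the log2 fold changes was tested by its SE, with Benjamini-Hochberg adjustment over 20754 genes. Of the 10 genes 0 passed at an adjusted p under 0.05, beside 0.00482% of all genes, and each adjusted p was 1. At an unadjusted p under 0.05, 2 of 10 differed, Ltbp2 and Tgfb2 again, where 2.65% of all genes did. From the authors' DESeq2 values, the hTNNT2 minus CMV difference of Ltbp2 was 0.21 (SE 0.088, 95% interval 0.037 to 0.38, p = 0.0172). That of Tgfb2, from the authors' DESeq2 values, was 0.19 (SE 0.093, interval 0.0070 to 0.37, p = 0.0418). Tgfb3 had a difference of 0.16 (SE 0.095, interval -0.025 to 0.35, p = 0.0897) from the authors' DESeq2 values. The remaining 7 differences lay between -0.088 (Ltbp3) and 0.089 (Tgfb1), and their intervals all held 0.

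Direction differed between the promoters for 9 of the 10 genes, where 46.7% of all genes tested in both tables did so. Tgfb1, Tgfb2, Tgfb3, Tgfbr2 and Ltbp2 were on the higher side with hTNNT2 and on the lower side with CMV. Tgfbr1, Ltbp1, Ltbp3 and Ltbp4 were on the lower side with hTNNT2 and on the higher side with CMV. Tgfbr3 was on the higher side in both. Genes of one tissue vary together, so the 9 directions are not independent of each other, and most of the values lie within 1 SE of 0.

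**Figure D3:**
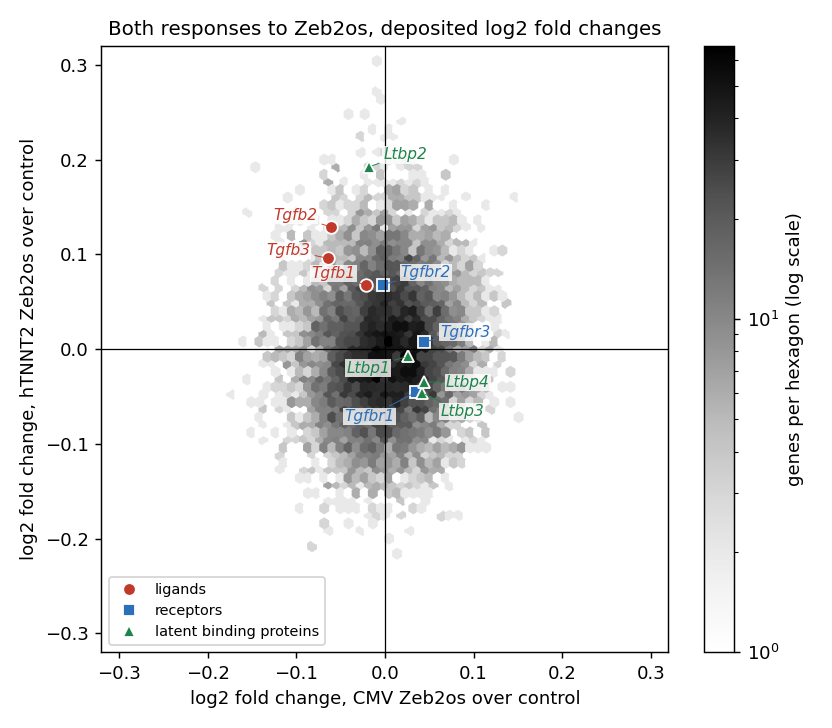
Deposited log2 fold change with hTNNT2 Zeb2os (vertical axis) against that with CMV Zeb2os (horizontal axis) for the 10 genes, over hexagons that count all genes whose mean count reached 50 in both tables. The 3 ligands, Tgfbr2 and Ltbp2 lie at the upper left; Tgfbr1, Ltbp1, Ltbp3 and Ltbp4 lie at the lower right.

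The deposited fold changes are shrunken, so the sizes above are smaller than plain ratios. The intervals above are likewise those of the shrunken values and need not hold the change without shrinkage. In each table the SE had a sharp upper limit, 0.0829 (hTNNT2) and 0.0713 (CMV), as a normal prior on the fold change with a standard deviation of 0.166 and 0.143 gives. From that limit and the deposited statistic the fold change without shrinkage was derived, which leaves 2 solutions for a gene. The test is the same under both. With the solution of the smaller fold, Ltbp2 with hTNNT2 Zeb2os was at 0.24 (SE 0.082), a fold of 1.18, and Tgfb2 at 0.16 (SE 0.081), a fold of 1.12. With the other, Ltbp2 was at 0.98 (SE 0.34), a fold of 1.97, and Tgfb2 at 0.67 (SE 0.34), a fold of 1.60. Shrinkage was also unequal: under the smaller fold the deposited Tgfb2 value kept 80.9% of the change with hTNNT2 and 68.1% with CMV. With the same solution for both promoters, the hTNNT2 minus CMV difference of Ltbp2 was 0.26 (SE 0.11) or 1.06 (SE 0.43). That of Tgfb2 was 0.25 (SE 0.13) or 0.86 (SE 0.40).

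The solutions imply different variation between mice. For Ltbp2 the coefficient of variation between mice would be 5.65% or 36.1% with hTNNT2, and 1.62% or 28.4% with CMV. Genes with a mean count of 100 to 300 had a median of 13.1% (hTNNT2) and 11.0% (CMV) under the solution of the smaller fold. Their 5th percentiles were 5.16% and 3.99%, so under that solution Ltbp2 lay above this limit with hTNNT2 and below it with CMV. For 170 of 2183 (hTNNT2) and 307 of 2334 (CMV) such genes that solution implied less error than counting alone gives. Those genes did not enter the medians or percentiles. For Tgfb2 with hTNNT2 it would be 8.41% or 37.3%, where genes with means of 1000 to 30000 had a median of 9.40% under the smaller fold. These medians and percentiles take the smaller fold for every gene, so they cannot decide between the solutions. Which solution holds for Ltbp2 or Tgfb2 cannot be read from the deposited values, so each change without shrinkage is given as lying at 1 of 2 values. For all other genes of the 10 the smaller fold gave coefficients from 5.52% to 11.5%.

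**Figure D4:**
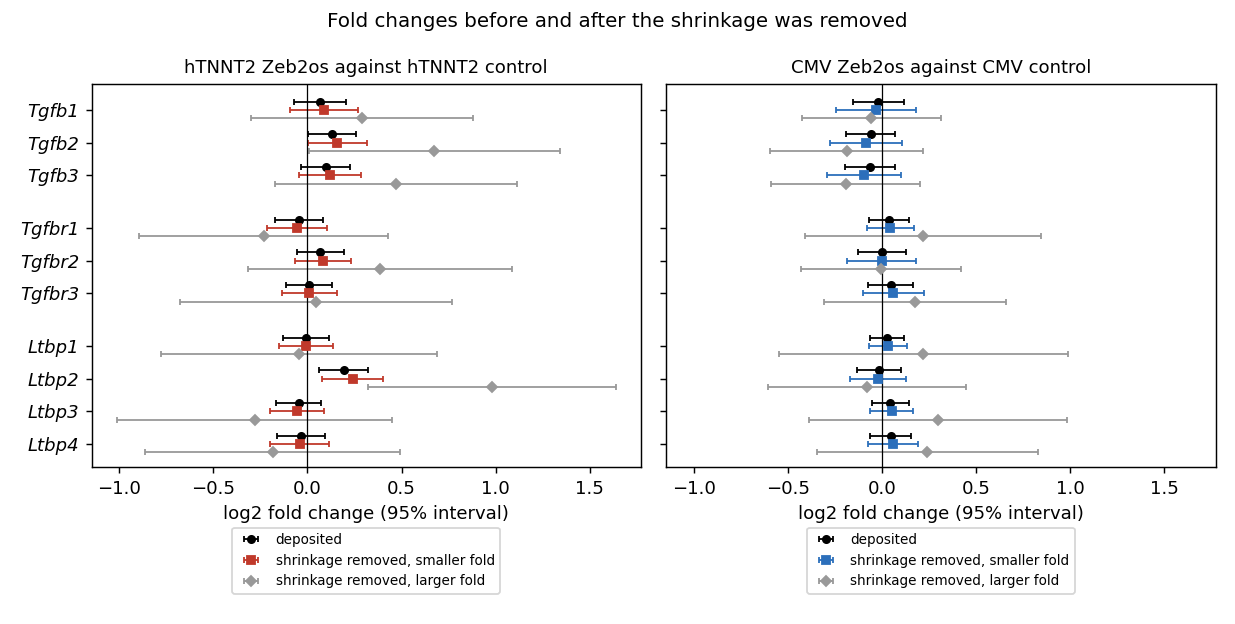
Log2 fold change with its 95% interval for each gene as deposited (black) and after the shrinkage was removed, with the solution of the smaller fold (red for hTNNT2, blue for CMV) and of the larger fold (grey). Ltbp2 with hTNNT2 stands at 0.19, 0.24 or 0.98.

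For a further gene to pass the adjusted test, a change of 1.24 to 1.31-fold would have been needed with hTNNT2, depending on the gene, and of 1.18 to 1.41-fold with CMV, under the smaller fold. Under the larger fold the change needed would have been 2.42 to 3.01-fold with hTNNT2 and 1.82 to 3.46-fold with CMV. For Ltbp2 with hTNNT2 it was 1.27-fold under the smaller and 2.68-fold under the larger solution.

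Other genes of the pathway were followed in 6 lists, and 0 of their members passed at an adjusted p under 0.05 by the authors' DESeq2 test with either promoter. Counts at an unadjusted p under 0.05 are to be read beside the shares of all genes, 2.27% higher and 1.64% lower with hTNNT2 and 0.661% higher and 1.01% lower with CMV. Among 13 genes that release or activate the ligand, 1 was higher and 1 lower at an unadjusted p under 0.05 with hTNNT2. Mmp2, a gelatinase that can release TGF-beta, stood at 0.11 (SE 0.054), and Lrrc32, which holds latent TGF-beta on the cell surface, at -0.18 (SE 0.078) according to the authors' deposited table. With CMV 0 were higher and 1 was lower, the activator Thbs1, at -0.18 (SE 0.071, unadjusted p = 0.0096, DESeq2) according to the authors' deposited table. The median of the list was 0.019 with hTNNT2 and -0.019 with CMV.

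Matrix proteins to which the latent complexes attach had 6 of 7 genes above 0 with hTNNT2 and 2 of 7 with CMV, with medians of 0.079 and -0.024. Fbln5, an elastic fibre protein, was the single one with an unadjusted p under 0.05, at 0.15 (SE 0.070) with hTNNT2 according to the authors' deposited table. With CMV fibrillin 1 (Fbn1) stood at -0.067 (SE 0.071) and fibronectin (Fn1) at 0.0040 (SE 0.069) according to the authors' deposited table.

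Co-receptors and extracellular inhibitors had 7 of 9 genes above 0 with hTNNT2 and 6 of 9 with CMV, with medians of 0.050 and 0.0077. Decorin (Dcn), a proteoglycan that binds TGF-beta and is made by fibroblasts, came nearest to the threshold of all pathway genes, at 0.25 (SE 0.063, adjusted p = 0.0995 by DESeq2) with hTNNT2 according to the authors' deposited table. With CMV it stood at 0.011 (SE 0.048), and the related Bgn at 0.068 (SE 0.058), in the authors' deposited table.

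Of 13 SMAD transducers and their regulators, 3 were above 0 and 10 below with hTNNT2 (median -0.037), and 7 above and 6 below with CMV (median 0.0018). At an unadjusted p under 0.05, 1 was higher and 2 lower with hTNNT2. The inhibitory Smad7 stood at -0.20 (SE 0.077, p = 0.0082, DESeq2), the transducer Smad3 at -0.17 (SE 0.072, p = 0.0164) and the co-repressor Tgif1 at 0.20 (SE 0.083, p = 0.0165) according to the authors' deposited table. With CMV 0 had an unadjusted p under 0.05, and Smad4, the shared partner of all signalling SMADs, stood at 0.030 (SE 0.044) according to the authors' deposited table. The co-repressor Ski stood at -0.015 (SE 0.051) with CMV according to the authors' deposited table.

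Of 16 genes known as TGF-beta targets, 12 were above 0 with hTNNT2 (median 0.096) and 9 with CMV (median 0.0076). At an unadjusted p under 0.05, 3 were higher and 2 lower with hTNNT2, and 0 with CMV. Col1a2, a chain of type I collagen, stood at 0.22 (SE 0.081) and Pmepa1, an inhibitor of SMAD activation, at -0.11 (SE 0.054) with hTNNT2 according to the authors' deposited table. Smad7, which SMAD3 switches on, is also in this list. The collagen chains Col3a1 and Col1a1, also counted as higher with hTNNT2, stood there at 0.17 (SE 0.082) and 0.16 (SE 0.082). With CMV they stood at 0.013 (SE 0.066) and 0.011 (SE 0.068) according to the authors' deposited table.

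Relatives in the activin and BMP branches had 11 of 17 genes below 0 with hTNNT2 (median -0.077) and 5 of 16 with CMV (median 0.012). At an unadjusted p under 0.05, 1 was higher and 4 were lower with hTNNT2. The stress cytokine Gdf15 stood at 0.19 (SE 0.063), the heart ligand Bmp10 at -0.12 (SE 0.042) and the type I receptor Acvr1 at -0.14 (SE 0.057) according to the authors' deposited table. Gdf15 and Bmp10 were measured at mean counts of 40.7 and 17.0 in the authors' deposited table. With CMV, Bmp10 had a mean count of 34.1 but no fold change or p-value, so its response could not be compared. With CMV, 0 passed at an unadjusted p under 0.05, and the receptors Bmpr2 and Bmpr1a stood at 0.061 (SE 0.057) and 0.029 (SE 0.061) according to the authors' deposited table.

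**Figure D5:**
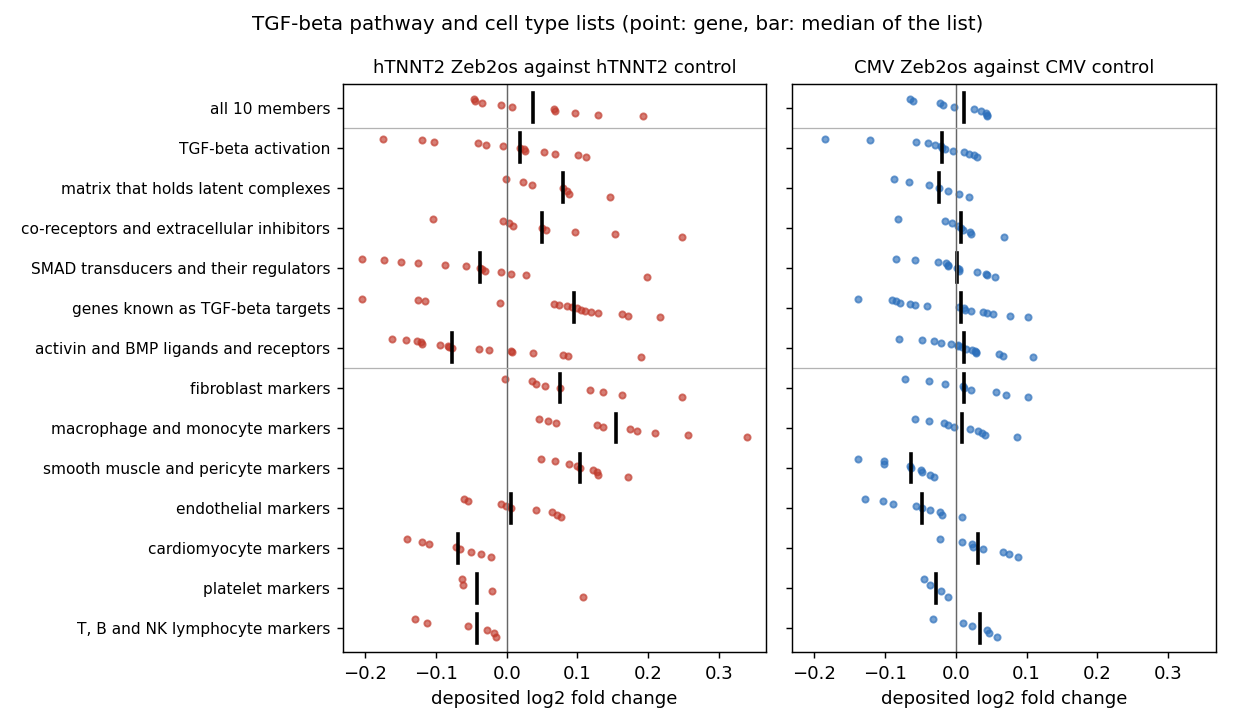
Deposited log2 fold change of each gene (points) and median of each list (black bars) for the 10 genes, 6 lists of other pathway genes and 7 lists of cell type markers, with hTNNT2 Zeb2os (left) and CMV Zeb2os (right). Smooth muscle and pericyte markers lie above 0 in all 9 genes with hTNNT2 and below 0 in all 9 with CMV.

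Beside these values, markers of 7 cell types were read in the same tables. Macrophage and monocyte markers were above 0 in 10 of 10 genes with hTNNT2 (0.045 to 0.34, median 0.155), of which 1, Lyz2, rose at an adjusted p under 0.05 by DESeq2, beside 0.0326% of all genes tested. With CMV 5 of 10 were above 0 (median 0.0088). Fibroblast markers were above 0 in 8 of 9 genes with hTNNT2 (median 0.075) and 6 of 9 with CMV (median 0.011). Smooth muscle and pericyte markers were above 0 in 9 of 9 genes with hTNNT2 (median 0.10) and 0 of 9 with CMV (median -0.063). Endothelial markers were above 0 in 5 of 9 (median 0.0060) and 1 of 9 (median -0.048). Cardiomyocyte markers were above 0 in 0 of 8 with hTNNT2 (median -0.069) and 7 of 8 with CMV (median 0.032). Platelet markers were above 0 in 1 of 4 (median -0.042) and 0 of 4 (median -0.028), and markers of T, B and NK lymphocytes in 0 of 6 (median -0.041) and 5 of 6 (median 0.034). The ligands, Tgfbr2 and Ltbp2 were above 0 with hTNNT2 and below 0 with CMV, as were the smooth muscle and endothelial medians. The macrophage and fibroblast medians shared that side only with hTNNT2. Tgfbr1, Ltbp1, Ltbp3 and Ltbp4 were below 0 with hTNNT2 and above 0 with CMV, as were the cardiomyocyte and lymphocyte medians. Several medians lay near 0, among them the endothelial one with hTNNT2 (0.0060) and the macrophage (0.0088) and fibroblast (0.011) ones with CMV. The defining markers Pdgfra, Csf1r, Myh11 and Cdh5 of fibroblasts, macrophages, smooth muscle and endothelium were all detected. Over the lists of these types, summed mean counts ranged from 17093 for macrophage to 130471 for fibroblast markers in the hTNNT2 table. In bulk tissue, more cells of a type and more RNA per cell cannot be told apart, and the part of these markers in the responses of the 10 genes was not tested.

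Sex also differed between the arms. 4 genes of the X chromosome that escape inactivation (Eif2s3x, Kdm5c, Ddx3x and Kdm6a), and so are higher in females, were below 0 in 4 of 4 with hTNNT2 (median -0.18) and above 0 in 4 of 4 with CMV (median 0.036). With hTNNT2 all 3 males were in the Zeb2os group, and with CMV both groups held males. The part of sex in the responses of the 10 genes, and in their difference between promoters, was not tested, since that needs values per mouse.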

How the data were processed

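RNA-seq of ribosome-depleted total RNA from the heart apex was analysed from the authors' comparisons. Per the submitters' processing notes, Trim Galore and DESeq2 were used with GRCm38 and mm10; no source used here names the aligner, the counter, its strand setting or any version. Deposited by the authors were, per the file headers, a signal (the normalised count averaged over a comparison), the log2 fold change, 2 scores (its SE and the Wald statistic) and a p-value, raw and adjusted. In size the deposited statistic equalled log2 fold change over SE (within 6.69e-06), with the sign reversed. Direction was read from Zeb2os, which is positive with its own vector.

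A gene was called at the authors' adjusted p under 0.05. Differences between promoters used the deposited log2 fold changes, their SEs, a 2-sided normal p and Benjamini-Hochberg adjustment. Intervals are 95% and normal, and describe the shrunken values except where shrinkage was removed. P-values measure the spread between mice as fitted by the authors. To remove shrinkage, u was solved from SE = u / (u x u + k), with k set by the largest SE of the table (511 genes with hTNNT2 and 523 with CMV lay within 0.1% of it). The statistic divided by u is then the fold change without shrinkage. No source used here states this prior, and the form holds for small changes. The solution was tried on data simulated from this same form, so its recovery there cannot show that the authors used this prior. The difference test was simulated on fold changes without shrinkage, and not on the shrunken ones used here. Lengths came from GENCODE M21 on GRCm38. All 134 list entries (6 pathway and 8 marker lists) matched the tables. The 10 genes and the lists were chosen with earlier results of these data known. Named pathway genes were up to 3 per list and comparison with the lowest unadjusted p under 0.05, otherwise up to 2 with the highest mean count. Col3a1 and Col1a1 with hTNNT2 were given outside this rule. Likeness to other genes, and replicates left out, need values per mouse and were not computed. Alternatives were other thresholds, count minimums, centring, rescaling and lengths. Python 3.11.15, numpy 2.4.6, pandas 2.3.3, scipy 1.17.1 and matplotlib 3.10.9 were used.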

Additional observations from a re-analysis of the deposited data

How the results depend on the processing

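The count of 0 of the 10 genes called was the same under each of 5 alternatives per promoter and 5 for the difference between promoters. The lowest adjusted p of any of the 10 genes over these was 0.186, for Ltbp2 with hTNNT2 when statistics were centred and rescaled to their own spread, beside 0.429 to 0.637 under other sets of genes. For the difference, a count minimum, centring, removal of shrinkage and the larger-fold solution (chosen after the data were examined, as was a count minimum of 10) left each adjusted p at 1.00. The median log2 fold change was 0.037 to 0.046 with hTNNT2 and 0.0088 to 0.013 with CMV with centring, a count minimum or removal of shrinkage by the smaller fold. With the larger fold, an alternative also added after the data were examined, it was 0.17 (hTNNT2) and 0.083 (CMV), with the same tests behind it. Centring shifted all genes by 0.0023 or 0.0026 and turned the sign of 0 of the 10 genes. The order of levels depended on gene length: 7 of 10 genes changed place in each table with the longest transcript. Leaving out single mice was not run, since it needs values per mouse. No paired analysis was possible because the groups share no replicate numbers and the tables hold no values per mouse. Depth limits Ltbp2 most, at mean counts of 151 and 206.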

Other observations

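Among the 10 genes Ltbp2 also stood apart in its mean count between the tables, an observation made after values had been seen. Its mean over 10 libraries was 1.36 times as high in the hTNNT2 table as in the CMV table, which were normalised separately. The other 9 genes had ratios of 1.14 (Tgfb1) to 1.18 (Tgfb2), and over genes whose mean reached 50 in both tables the median ratio was 1.16, with 1.07 and 1.22 at the 5th and 95th percentiles. The trait was not particular to Ltbp2. Fmod, with means of 187 (hTNNT2) and 123 (CMV), and Zeb2, with 8631 and 5953, differed further.

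Genes of the atrium, used to check the dissection, were listed without a p-value for 3 of 4 with hTNNT2 (Myl4, Myl7 and Sln) and 1 of 4 with CMV (Myl7). Their mean counts were 251, 111 and 22.6 in the hTNNT2 table and 143, 45.2 and 5.43 in the CMV table in the same order. Whether single mice decided these means was not tested. Nppa, the fourth gene, stood at 0.047 (SE 0.072) with hTNNT2 and 0.047 (SE 0.040) with CMV in the authors' deposited tables.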
